A study of Mus musculus with 6 samples.

Results

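The 9 genes described here store and release glycogen in muscle: Gys1, Gbe1, Gyg and Ugp2 for synthesis, Pygm, Phka1 and Phkg1 for breakdown, and Ppp1r3a and Ppp1r3c, which bring a phosphatase to the glycogen particle. They were chosen by name out of 18194 genes that the platform's gene table names. All 19 probe sets that the table gives to exactly 1 of these symbols were taken, of 45037 probe sets other than controls, and 0 probe sets named a member together with another gene. A probe set is a group of short probes against one transcript, and its value is a MAS5 signal, a linear fluorescence intensity. Of the 19 probe sets 16 were bright enough to be tested, and they covered 8 of the 9 genes. The single Gbe1 probe set and a second one each of Gys1 and Ppp1r3c were dim, with a mean log2 signal under 9.08 (a signal of 540).

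Total RNA came from the gastrocnemius, a calf muscle made mostly of fast fibres in mice, of male C57B1/6 mice with a normal karyotype. There were 3 arrays of aged muscle (replicates 51, 52 and 53) and 3 arrays of young muscle (replicates 1, 2 and 3), all on the Affymetrix Mouse430_2 array, and the labels name no treatment, no genotype other than the strain, and no age in months. Whether each array holds a different animal is not stated, so the spread within a group may be partly technical. In RNA of whole muscle, fewer fibres of a kind and less transcript per fibre cannot be told apart.

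Glycogen is the branched store of glucose that a contracting muscle draws on first. Its synthesis begins with UDP-glucose, made by Ugp2, which the self-glucosylating protein glycogenin (Gyg) uses to build a primer that glycogen synthase (Gys1) extends and the branching enzyme (Gbe1) branches. Breakdown is carried out by the muscle glycogen phosphorylase (Pygm), which is switched on by phosphorylase kinase, a complex in which Phkg1 encodes the muscle catalytic subunit and Phka1 the muscle form of the largest regulatory subunit. The targeting subunits Ppp1r3a and Ppp1r3c hold protein phosphatase 1 on glycogen, where it activates the synthase and counters phosphorylase kinase. Fast fibres hold more of the phosphorylase system than slow ones do.

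The arrays had median signals between 637 and 833, and every array had the same trimmed mean of 1500.01. Aged replicate 51 and all young arrays were washed on fluidics station 1 and aged replicates 52 and 53 on station 2, so on the arrays of station 2 a station effect cannot be told apart from age. The log2 ratio of 3 prime to 5 prime signal of the Gapdh and actin controls, a measure of RNA quality, was 2.11, 2.00 and 2.86 on aged replicates 51, 52 and 53, against 1.71, 1.77 and 1.75 on young replicates 1, 2 and 3. The aged arrays were therefore all above the young ones on this measure. Of 8 fast and general muscle fibre markers all 8 were bright, all were lower by value in aged muscle and 1, Myh2, passed. In log2 signal, aged minus young, Myh2 was at -2.38, Myh4 at -0.15 (-0.58 on its other tested probe set) and Actn3 at -0.06. The others ran from -0.92 (Mylpf) to -0.54 (Tnnt3). Summed signal of the 8 ranged from 1741505 to 2033816 on aged arrays, against 2603924 to 3143316 on young arrays. Summed signal of 8 slow fibre markers ranged from 19865 to 23563 on aged arrays, against 149059 to 182668 on young arrays, and 7 of the 8 passed the test as lower in aged muscle. Of 6 tested adipocyte markers 4 passed as higher in aged muscle, with summed signals of 166015 to 300198 on aged arrays, against 78262 to 93629 on young arrays. As lower in aged muscle, 5 of 8 tested fibroblast, 2 of 3 Schwann cell and 1 of 2 smooth muscle markers passed. Of macrophage markers 0 of 5 passed, and of endothelial markers 0 of 3. Of 4 blood markers only 3 had a named probe set, and these 3 were dim. With the station as a covariate 0 adipocyte and 0 smooth muscle markers passed, although the median over the tested adipocyte markers was 1.64, against 1.76 without it. The part that fibre makeup, fat cells and RNA quality have in the member values was not tested, apart from a fit with the control ratio as a covariate.

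The comparison asked whether genes of glycogen synthesis or breakdown differ between aged and young muscle. No member passed. Of the 16 tested probe sets 0 reached an adjusted p of 0.05 in limma's moderated test on log2 signals, where 1.05% of all 22519 tested probe sets did (0.311% higher and 0.742% lower in aged muscle). An unmoderated linear model called 0 of all 22519 probe sets, so its 0 for the members says nothing about them. On simulated data the moderated fit called 14.6% of 4-fold changes. That 0 members passed therefore does not show that none changed. At an unadjusted p under 0.05 there were 5 of the 16, against 10.0% of all tested probe sets, and 3 of these 5 belong to Phka1. The 3 aged arrays lay above the 3 young arrays on 2 member probe sets, both of Phka1, and below them on 1, of Ugp2. Over all tested probe sets these shares were 7.41% and 8.74%. Differences are aged minus young in log2 signal and are followed by the standard error from limma, over 3 arrays of each group.

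**Figure D1:**
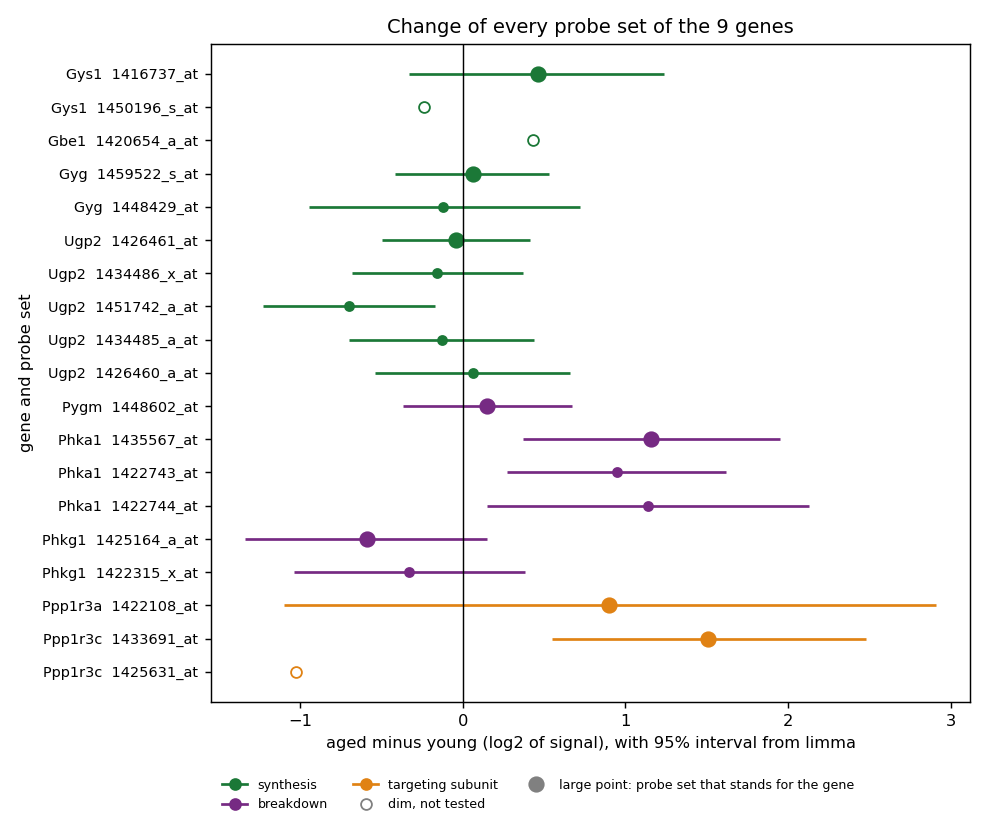
Aged minus young difference in log2 signal (x axis) for all 19 probe sets of the 9 genes (rows), with limma's 95% interval for the 16 tested ones and open points for the 3 dim ones. The intervals of the 3 Phka1 probe sets, 1 Ppp1r3c probe set and 1 Ugp2 probe set leave out 0 before adjustment, and none passed after it.

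Among the synthesis genes, differences between the groups were within the spread of the arrays for Gys1, Gyg and most probe sets of Ugp2. Gys1, the muscle glycogen synthase, had signals of 2349, 3973 and 5276 on aged replicates 51, 52 and 53, against 3149.9, 2572.5 and 2348 on young replicates 1, 2 and 3. Aged replicates 52 and 53 were above every young array, and aged replicate 51 lay among them. The difference was 0.46 ± 0.36 (95% interval -0.33 to 1.24, adjusted p = 0.708). Its other probe set was dim, with signals of 37.1 to 436.6 on aged arrays and 49.3 to 580.2 on young arrays.

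The glycogenin gene Gyg was read most brightly by probe set 1459522_s_at. Its signals were 63577, 58227 and 56927 on aged replicates 51, 52 and 53, against 72821, 55735 and 45972 on young replicates 1, 2 and 3. Whether its probes also bind other transcripts was not examined. The aged values lie inside the range of the young ones. The difference was 0.06 ± 0.22 (95% interval -0.42 to 0.53), which leaves room for a change of up to 1.45-fold upward and 0.749-fold downward. A second Gyg probe set, 1448429_at, at -0.12 ± 0.38, had overlapping groups as well. It was much dimmer, with signals of 1971.4 to 3601.7 on aged arrays and 1974.4 to 3602.2 on young arrays.

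Gbe1, the branching enzyme, was measured by 1 dim probe set with signals of 80.7, 1404 and 959.0 on aged replicates 51, 52 and 53, against 499.1, 168.1 and 531.8 on young replicates 1, 2 and 3. The aged arrays held both the lowest and the highest value. With such a spread (SD 2.24 in aged and 0.93 in young muscle on the log2 scale) its mean difference of 0.43 carries little information, and it was not tested.

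Ugp2, which makes UDP-glucose, was measured by 5 probe sets, all bright. The brightest, 1426461_at, had signals of 36930.5, 41589.6 and 52301 on aged replicates 51, 52 and 53, against 48940.2, 44242 and 40636 on young replicates 1, 2 and 3. The groups overlapped, and the difference was -0.04 ± 0.21 (95% interval -0.50 to 0.41, adjusted p = 0.959). Probe sets 1434486_x_at, 1434485_a_at and 1426460_a_at were at -0.16, -0.13 and 0.06, also with overlapping groups. The fifth, 1451742_a_at, stood apart from these, with signals of 17295, 25050.3 and 30530.4 on aged replicates 51, 52 and 53, against 45706, 33912 and 36728 on young replicates 1, 2 and 3. All aged arrays were below all young arrays there, by 0.70 on average (-0.70 ± 0.24, 95% interval -1.23 to -0.17, unadjusted p = 0.0139), and it did not pass (adjusted p = 0.314). It was at -1.15 in a fit with the fluidics station as covariate (adjusted p = 0.093). The suffix _a_at marks probes shared by several transcripts of one gene, and which Ugp2 transcripts this probe set reads was not examined.

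**Figure D2:**
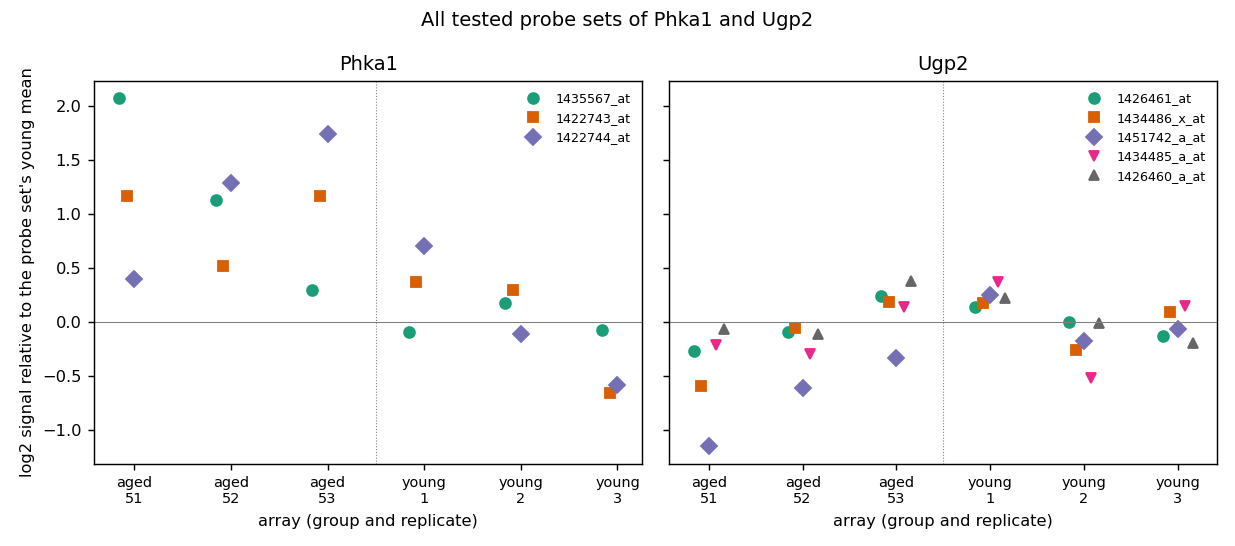
Log2 signal on each array relative to the probe set's own young mean (y axis) for the 3 Phka1 and 5 Ugp2 probe sets (symbols). For Phka1, 1435567_at is highest on aged replicate 51 and lowest of the aged arrays on 53, 1422744_at runs the other way, and for Ugp2 only 1451742_a_at has all aged arrays below all young arrays.

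Of the breakdown genes, the phosphorylase showed little difference and the subunits of its kinase pointed in different directions. Pygm, the muscle phosphorylase, had signals of 11020.3, 11473 and 10379 on aged replicates 51, 52 and 53, against 12644, 9314 and 8141 on young replicates 1, 2 and 3. The aged arrays sat close together inside the young range (SD 0.07 in aged and 0.33 in young muscle). The difference was 0.15 ± 0.24 (95% interval -0.37 to 0.67, adjusted p = 0.856), or between 0.775-fold and 1.59-fold.

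Phkg1, the catalytic subunit of phosphorylase kinase, had signals of 2698, 3047 and 2765.5 on aged replicates 51, 52 and 53, against 5212, 5517 and 2716 on young replicates 1, 2 and 3. Young replicates 1 and 2 were far above the aged arrays, while young replicate 3 lay among them. The difference was -0.59 ± 0.34 (95% interval -1.34 to 0.15, adjusted p = 0.593). The second probe set, 1422315_x_at, was at -0.33 ± 0.32 with the same young replicate low, and its suffix marks probes that can bind other transcripts.

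Phka1, the regulatory subunit of the same kinase, was higher by value in aged muscle on all 3 of its probe sets, and none passed. The brightest, 1435567_at, had signals of 30473, 15875 and 8934 on aged replicates 51, 52 and 53, against 6809.9, 8199 and 6891 on young replicates 1, 2 and 3. Every aged array exceeded every young one, but the aged arrays themselves spanned more than the gap between the groups. The difference was 1.16 ± 0.36, a 2.24-fold ratio (95% interval 1.29 to 3.88, unadjusted p = 0.00756, adjusted p = 0.246).

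A second Phka1 probe set, 1422743_at, had signals of 15812.5, 10113 and 15847 on aged replicates 51, 52 and 53, against 9094, 8671 and 4488 on young replicates 1, 2 and 3. These groups did not overlap either, and the difference was 0.95 ± 0.31 (adjusted p = 0.275). The third, 1422744_at, had signals of 2087, 3849 and 5267 on aged replicates 51, 52 and 53, against 2576.5, 1461 and 1057 on young replicates 1, 2 and 3. Here aged replicate 51 lay below young replicate 1, and the difference was 1.14 ± 0.45 (adjusted p = 0.415). The probe sets thus ordered the aged arrays differently: replicate 51 was highest on 1435567_at and lowest on 1422744_at. In a fit with the station as a covariate 1435567_at passed, at 2.07 ± 0.36 (an adjusted p of 0.0264), and it passed among station 1 arrays alone (adjusted p = 0.00985), where 1 aged array is set against 3 young ones and is assumed to vary as they do. It also passed without aged replicate 53, at 1.60 (adjusted p = 0.0178), and with the control ratio as a covariate it was at 2.01 (adjusted p = 0.0786). With that ratio in the fit 1422743_at was at 0.68 (adjusted p = 0.561) and 1422744_at at 0.61 (adjusted p = 0.728). In the station fit the other Phka1 probe sets were at 1.16 (adjusted p = 0.279) and 0.40 (adjusted p = 0.79).

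Both targeting subunits were higher by value in aged muscle, and neither passed. Ppp1r3c, also called protein targeting to glycogen, had signals of 15126, 57242 and 69645 on aged replicates 51, 52 and 53, against 12475, 15735 and 13167 on young replicates 1, 2 and 3. Aged replicates 52 and 53 were far above all young arrays, and aged replicate 51 lay inside the young range. The mean log2 signal was 15.26 ± 1.20 in aged and 13.74 ± 0.18 in young muscle (SD, n = 3 each). The difference was 1.51 ± 0.44, a 2.86-fold ratio (95% interval 1.46 to 5.58, unadjusted p = 0.00508, adjusted p = 0.198). Aged replicate 51 alone was 0.14 above the young mean on the log2 scale, and aged replicates 52 and 53 together were 2.20 above it. Aged replicate 51 is the aged array that was washed on the station of the young arrays. Once the station entered the fit Ppp1r3c was at 0.14 (adjusted p = 0.85), and without aged replicate 51 it was at 2.20 and passed (adjusted p = 0.000481). With the control ratio as a covariate it was at 0.76 (adjusted p = 0.637). Station and the difference among aged arrays cannot be told apart for this gene. Its second probe set, 1425631_at, was dim, at 72.8, 236.3 and 1168 on aged replicates 51, 52 and 53, against 323.8, 918.0 and 573.7 on young replicates 1, 2 and 3.

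Ppp1r3a, the targeting subunit specific to striated muscle, had signals of 751.5, 1529 and 740.6 on aged replicates 51, 52 and 53, against 185.7, 379.7 and 1855 on young replicates 1, 2 and 3. Young replicate 3 was the highest of all arrays and young replicate 1 the lowest. The mean log2 signal was 9.89 ± 0.60 in aged and 8.99 ± 1.70 in young muscle (SD, n = 3 each), so the young mean lay under the brightness limit of 9.08 and the gene was tested through its aged arrays. The difference was 0.90 ± 0.92, and its 95% interval from -1.10 to 2.91 holds changes of 0.465-fold to 7.50-fold (adjusted p = 0.776). It was at 0.18 without young replicate 1, at 1.84 without young replicate 3, and at 0.57 with the station as a covariate.

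**Figure D3:**
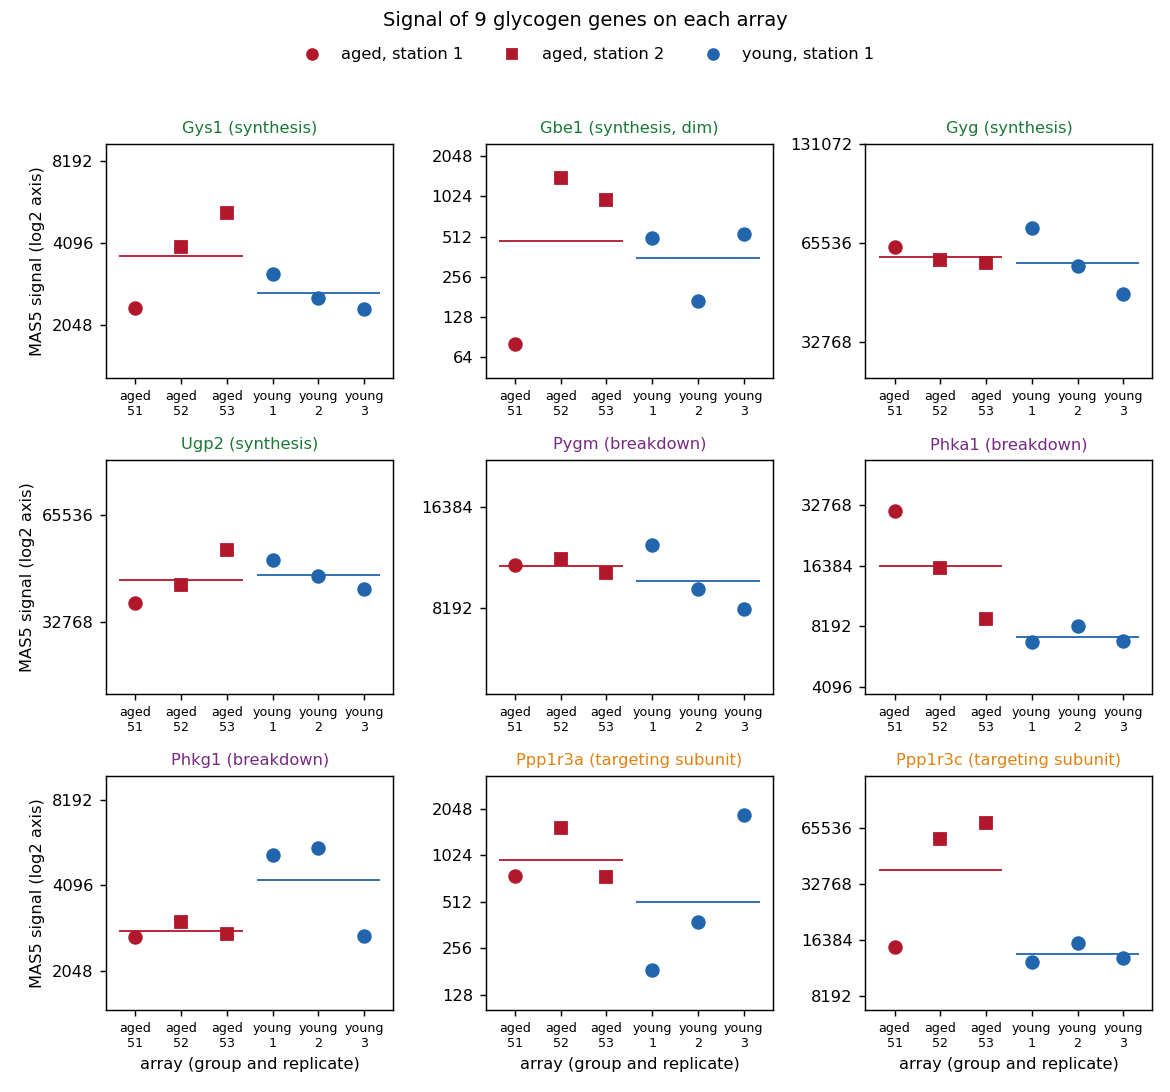
MAS5 signal (log2 axis, scaled per panel) on each of the 6 arrays for the probe set that stands for each of the 9 genes, with lines at the group means of log2 signal and squares for the arrays of station 2. Only Phka1 has all aged arrays above all young arrays, and for Ppp1r3c aged replicates 52 and 53 stand apart from the 4 arrays of station 1.

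Promoter windows of the members with the largest differences by value, Ppp1r3c, Phka1 and Ppp1r3a, are shown to set the start regions of both targeting subunits beside that of the kinase subunit. Each runs from 250 bases before to 50 bases after a RefSeq transcript start, on the minus strand of GRCm38.p6, written 5′ to 3′. Capitals mark matches on either strand to 4 motifs, none of which holds another: CACGTG (an E-box), GGGCGG (the GC box), CCAAT (the box bound by NF-Y) and TATAAA (the core of the TATA box).
Ppp1r3c, chr19:36736555-36736854: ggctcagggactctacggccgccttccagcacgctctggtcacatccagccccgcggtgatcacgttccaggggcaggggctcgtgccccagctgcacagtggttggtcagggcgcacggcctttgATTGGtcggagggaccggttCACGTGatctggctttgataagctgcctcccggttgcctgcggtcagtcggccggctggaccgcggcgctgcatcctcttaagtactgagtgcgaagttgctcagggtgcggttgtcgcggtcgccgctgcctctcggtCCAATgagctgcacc
Phka1, chrX:102644197-102644496: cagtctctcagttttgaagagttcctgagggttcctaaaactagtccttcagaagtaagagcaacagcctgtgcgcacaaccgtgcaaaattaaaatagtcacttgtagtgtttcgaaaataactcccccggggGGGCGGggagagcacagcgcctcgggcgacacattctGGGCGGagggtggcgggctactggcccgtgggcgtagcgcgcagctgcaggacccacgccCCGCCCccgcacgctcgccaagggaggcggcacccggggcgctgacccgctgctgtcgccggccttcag
Ppp1r3a, chr6:14755225-14755524: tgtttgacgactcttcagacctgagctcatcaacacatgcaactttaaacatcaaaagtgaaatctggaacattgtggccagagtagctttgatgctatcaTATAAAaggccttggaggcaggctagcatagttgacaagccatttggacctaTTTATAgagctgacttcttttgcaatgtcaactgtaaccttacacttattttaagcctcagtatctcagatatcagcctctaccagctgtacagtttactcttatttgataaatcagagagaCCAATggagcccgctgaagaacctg

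The Ppp1r3c window held 1 CACGTG, starting 104 bases before the start site, and 2 CCAAT matches, 1 of them after the start site. Its GC content was 65.3%, where the median over all promoter windows was 52.7%. CACGTG occurred in 7.15% of all 32851 promoter windows, and among the 9 members also in Gyg. The Phka1 window held 3 GC boxes, a motif found in 35.7% of windows, and was 62.7% GC. The Ppp1r3a window, at 41.0% GC, held no GC box and had 2 TATAAA matches, a motif present in 13.6% of windows and in no other member. They started 149 and 97 bases before the start site, the latter on the opposite strand. The CCAAT match of Ppp1r3a lay after the start site. CCAAT was found in 37.4% of windows. These matches describe letters only, and no file here measured binding.

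Set against each other, synthesis and breakdown showed no common direction across the aged arrays. For each array the mean log2 signal of the 4 synthesis genes and of the 3 breakdown genes was taken relative to the young mean of each gene. Synthesis stood at -0.61, 0.62 and 0.66 on aged replicates 51, 52 and 53, against 0.30, -0.29 and -0.01 on young replicates 1, 2 and 3. This mean includes the dim Gbe1, which was at -2.135, 1.985 and 1.435 on aged replicates 51, 52 and 53. Breakdown stood at 0.52, 0.29 and -0.09 on aged replicates 51, 52 and 53, against 0.18, 0.15 and -0.34 on young replicates 1, 2 and 3. The difference of both was -1.13, 0.34 and 0.75 on aged replicates 51, 52 and 53, against 0.12, -0.45 and 0.33 on young replicates 1, 2 and 3. Its mean was -0.02 ± 0.99 in aged and 0 ± 0.40 in young muscle (SD, n = 3 each; the young mean is 0 by construction). The 3 aged arrays thus lay on both sides of the young ones, with replicate 51 lowest and replicate 53 highest. Leaving out the dim Gbe1 was a choice made after seeing the data. Without it synthesis was at -0.10, 0.17 and 0.40 on the aged arrays, against 0.24, -0.03 and -0.21 on the young arrays. The difference of synthesis and breakdown was then at -0.62, -0.12 and 0.49 on the aged arrays, with a mean of -0.08. On the young arrays it was at 0.06, -0.19 and 0.13. No test was run on this score, because its genes were chosen with results of these data known.

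The targeting subunits, scored in the same way, were at 0.35, 1.83 and 1.44 on aged replicates 51, 52 and 53, against -0.79, -0.11 and 0.90 on young replicates 1, 2 and 3. Aged replicate 51 again lay within the young range, and the score draws on Ppp1r3a, whose young mean was dim. By gene, the median difference was 0.24 over the 4 synthesis genes, 0.15 over the 3 breakdown genes and 1.21 over the 2 targeting subunits, where the median over all tested probe sets was 0.0079. The synthesis median lies between Gyg at 0.06 and the dim, untested Gbe1 at 0.43, so its place above breakdown rests on Gbe1. Over tested probe sets in place of genes it was -0.08 for synthesis (8 probe sets) and 0.55 for breakdown (6, of which 3 are of Phka1).

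**Figure D4:**
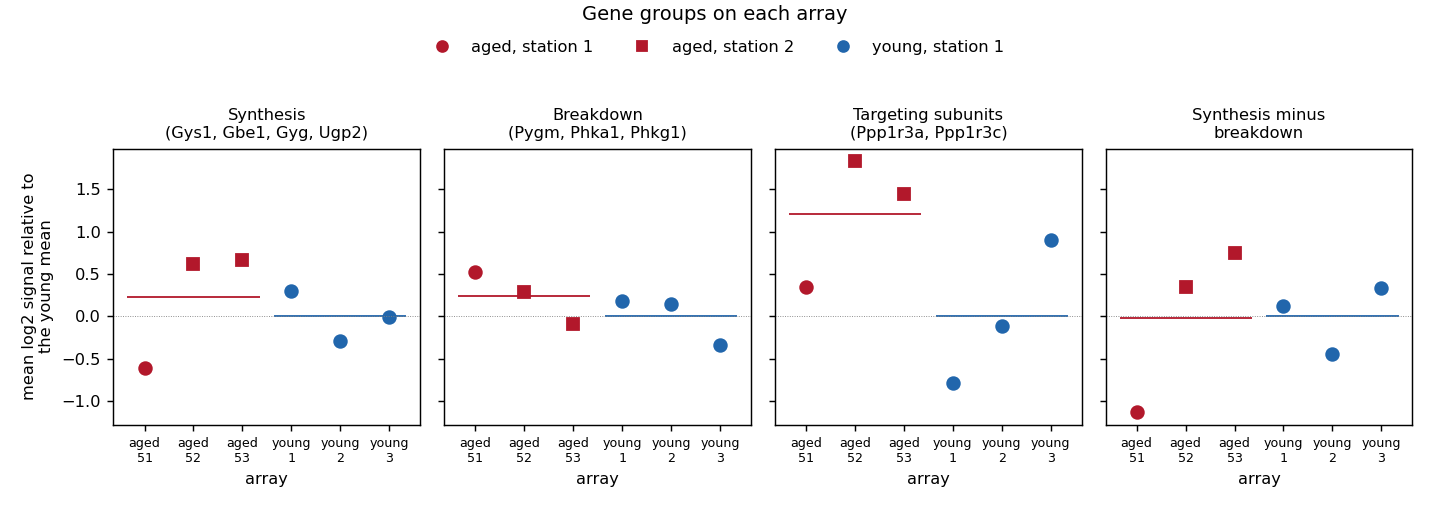
Mean log2 signal relative to the young mean (y axis) on each array for the synthesis, breakdown and targeting genes, and synthesis minus breakdown, with lines at group means. Aged replicate 51, at -1.13 in the last panel, lies below all young arrays and aged replicate 53, at 0.75, above them.

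Replicate 51 set the direction or the size of several member values. Without it Gys1 was at 0.78, and with the station as a covariate, which equals replicate 51 minus the young mean, at -0.18. Pygm was at 0.16 in that fit and Phkg1 at -0.66, both close to the values over all arrays. For Phka1 the probe sets differed in this: replicate 51 and the mean of replicates 52 and 53 were 2.07 and 0.71 above the young mean on 1435567_at, 1.16 and 0.84 above it on 1422743_at, and 0.40 and 1.51 above it on 1422744_at. The first of these ran the opposite way to Ppp1r3c and the last ran the same way.

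**Figure D5:**
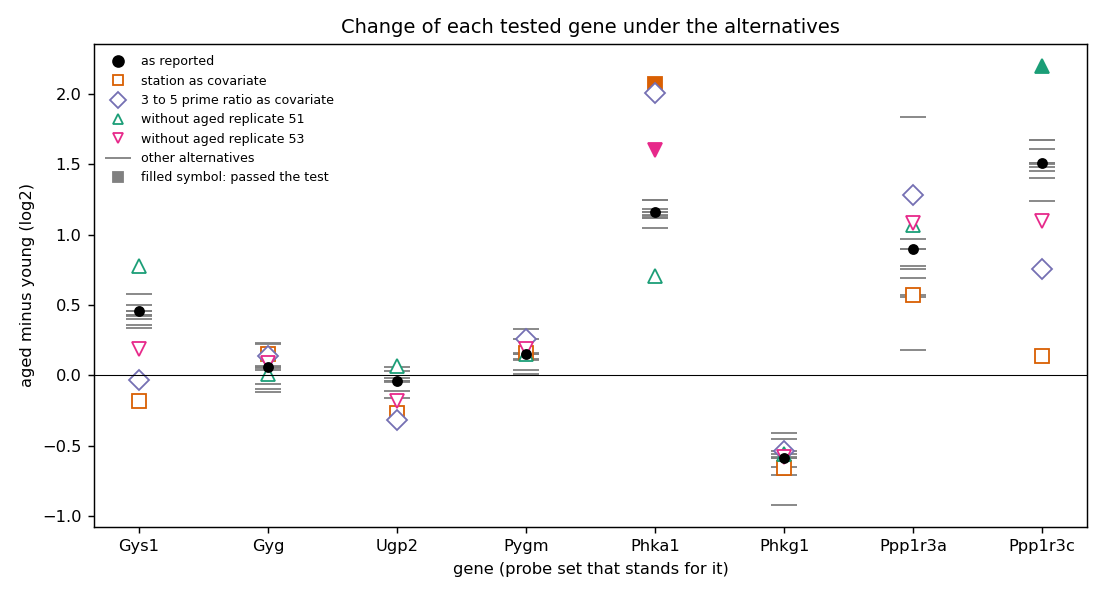
Aged minus young difference in log2 signal (y axis) of the 8 tested genes in the fit over all arrays (black points) and under the alternatives, where a filled symbol passed an adjusted p of 0.05. Phka1 passed with the station as a covariate (2.07) and without aged replicate 53 (1.60), and Ppp1r3c passed without aged replicate 51 (2.20).

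Beyond the 9 members, 4 lists of pathway genes held 54 genes, of which 45 were tested and 0 passed in limma, against 1.05% of all tested probe sets. At an unadjusted p under 0.05 there were 9 of the 45, against 10.0% of all tested probe sets. The 45 are the brightest tested probe set of each gene, so these shares are not over like sets. The 9 include Slc2a3 and Akt1, which were tested through their aged arrays. Over all tested probe sets 50.5% were positive, and the median was 0.0079. Of 9 tested genes for glucose uptake and supply 6 were positive and 3 negative, with a median of 0.52 (0.28 with the station as a covariate). The glucose transporter Slc2a3 had signals of 1454, 1815 and 1842 on aged replicates 51, 52 and 53, against 363.3, 58.2 and 556.5 on young replicates 1, 2 and 3. All its aged arrays were above the young ones (2.90 ± 0.96, adjusted p = 0.283), the young values being near or under the limit of 540. Its young mean log2 signal lay under the brightness limit, so it was tested through its aged arrays. The hexokinase Hk3 was at 1.16 ± 0.68, with overlapping groups, at 0.28 with the station as a covariate, and at 0.30 on its other tested probe set. The phosphoglucomutase family member Pgm2 was at -0.90 ± 0.80, and this rests on aged replicate 53 at 171.9. Aged replicates 51 and 52, at 1501.9 and 1251.1, lay inside the young range of 1148.6 to 1523.9, and Pgm2 was at 0.23 with the station as a covariate.

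Of 6 tested other breakdown genes 5 were positive, with a median of 0.62 (0.31 with the station as a covariate). Pygl, the liver form of phosphorylase, had signals of 2447, 6110.5 and 2711 on aged replicates 51, 52 and 53, against 772.8, 1377 and 1861.5 on young replicates 1, 2 and 3. The groups did not overlap (1.45 ± 0.47, adjusted p = 0.274). Pygb, the brain form, was at 0.68 ± 0.87, with 1095.3, 743.4 and 826.3 on aged replicates 51, 52 and 53, against 1035.1, 162.5 and 968.3 on young replicates 1, 2 and 3. Its positive sign rests on young replicate 2, since the other young arrays lay above aged replicates 52 and 53. Gaa, the lysosomal glucosidase that degrades glycogen, was at 0.67 ± 0.28, with all aged arrays above the young ones. The 3 calmodulin genes were not analysed here.

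Of 12 tested other phosphatase and glycogen-binding genes 7 were positive and 5 negative, and 0 had an unadjusted p under 0.05. Their median was 0.10 (0.40 with the station as a covariate). The phosphatase inhibitor Ppp1r1a was at 1.00 ± 0.70, which rests on young replicate 3 at 264.8. Young replicates 1 and 2, at 1665.2 and 1949.6, lay among the aged values of 1603.4 to 2560.2. The targeting subunit Ppp1r3f was at 0.78 ± 0.80 and Nhlrc1, the ubiquitin ligase malin, at 0.76 ± 0.55, both with overlapping groups. Of 18 tested kinase genes 12 were positive and 6 negative, with a median of 0.27 (0.22 with the station as a covariate). Akt1 was at 3.20 ± 1.07, with 2139.7, 2207 and 1159 on aged replicates 51, 52 and 53, against 59.3, 129.8 and 913.3 on young replicates 1, 2 and 3 (adjusted p = 0.289). Its aged arrays were all above the young ones, and the values of young replicates 1 and 2 were dim. Like Slc2a3, Akt1 had a young mean log2 signal under the brightness limit and was tested through its aged arrays. Akt2 was at -1.48 ± 0.98, and its aged replicate 53, at 4293, was the highest of the 6 arrays. Prkab2, a regulatory subunit of the AMP-activated kinase, was at 0.83 ± 0.27 (adjusted p = 0.261), while its other tested probe sets were at 0.05 and 0.37.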

How the data were processed

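RNA was labelled with biotin and hybridised to 6 arrays, 1 sample each. Per the submitters' processing notes the deposited values are MAS5 intensities on a linear scale, 1 per probe set. The trimmed means (2% at each end) were equal, so arrays had been scaled to one mean, which assumes that overall signal is alike. Intensities were taken to log2, 64 control probe sets were left out, and probe sets with a mean log2 signal under the median were called dim. The 22519 others entered limma 3.58.1, run in R 4.3.3 (lmFit, eBayes with trend, two-sided, Benjamini-Hochberg over all of them, threshold 0.05). The number of arrays limits precision: the median standard error was 0.559.

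The tested probe set with the highest mean signal stood for a gene, or the brightest if all were dim. Named from the lists were all 9 members, any list gene that passed, and otherwise the 3 tested genes with the largest absolute difference in each of 4 pathway lists. Members matched RefSeq by gene ID in 9 of 9 cases, and all had a promoter window. The members, lists, tests and alternatives were chosen with earlier results of these data known. Of the 54 list genes 48 had a named probe set. The fit was tested on simulated data with known changes. There it called 0.622% of 2-fold changes, 14.6% of 4-fold changes and 59.7% of 16-fold changes. These shares are over tested probe sets of every spread and do not hold for each gene. A gene that did not pass may therefore still differ between the groups. Python 3.11.15, pandas 2.3.3, numpy 2.4.6 and matplotlib 3.10.9 were used for sequences and figures. The alternatives were other normalizations, filters, a pseudocount of 219, other estimates of spread, covariates, probe set kinds, and each array left out.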

Additional observations from a re-analysis of the deposited data

How the results depend on the processing

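No paired analysis was possible because the aged and young groups share no replicate numbers. Of 170 member values under alternatives 155 kept their direction and their side of the threshold, or for the untested Gbe1 stayed within the spread of its arrays. Many of these could not move. Other filters, no trend, robust spread and the unmoderated model leave each difference as it was, and the unmoderated model passed 0 probe sets. Leaving out _x_at and _s_at probe sets altered only the difference of Gyg. The station fit and station 1 arrays alone gave equal differences and were counted separately. With the station as a covariate, and equally among station 1 arrays alone, Phka1 was at 2.07 and 1 member passed, Gys1 was at -0.18, Gbe1 at -2.14 and synthesis minus breakdown at -1.13. The covariate's estimate is the difference within station 1 by construction. With the 3 prime to 5 prime ratio as a covariate Gys1 was at -0.03, synthesis minus breakdown at -0.71 and 138 probe sets passed in all. With the targeting subunits counted as synthesis that difference was 0.31. Values near 0 changed sign for Ugp2 after quantile normalization (0.06), for Gyg after median centring (-0.06), which moved the median of all tested probe sets to -0.11, and for Gyg without _x_at and _s_at probe sets (-0.12). Other probe sets of a gene pointed the other way for Gys1 (-0.24, dim), Gyg (-0.12), Ugp2 (0.06) and Ppp1r3c (-1.03, dim). With 1 array left out 0 to 1 members passed, and the ranges were 0.71 to 1.60 for Phka1, 1.10 to 2.20 for Ppp1r3c, 0.18 to 1.84 for Ppp1r3a, -0.92 to -0.41 for Phkg1, -0.18 to 0.07 for Ugp2, -0.10 to 0.23 for Gyg, -0.35 to 1.71 for Gbe1 and -0.40 to 0.54 for synthesis minus breakdown. The count over all probe sets was 237, 124 to 342 with 1 array left out, 365 among station 1 arrays, 21 without the trend of spread with brightness and 0 with an unmoderated linear model. The cause of these shifts was not tested. Ppp1r3a has no value under the stricter filter, being too dim for it. Without the filter, medians of the 4 pathway lists stayed within the spread and 0 of their genes passed. In the station fit, applied to the lists after seeing the data, 0 passed too, and the medians were 0.28 for glucose supply, 0.31 for other breakdown genes, 0.40 for phosphatase genes and 0.22 for kinases.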

Other observations

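Some further pathway genes were chosen after their values were seen, and none of them passed. Slc2a4, the insulin-responsive glucose transporter of muscle, had signals of 12429.8, 15756 and 12358 on aged replicates 51, 52 and 53, against 7951, 9694 and 10566 on young replicates 1, 2 and 3. All its aged arrays were above all young arrays (0.52 ± 0.23, adjusted p = 0.473), and its other tested probe set was at 0.26. Dyrk2, a kinase reported to act on glycogen synthase, had signals of 31259, 28139 and 40469.7 on aged replicates 51, 52 and 53, against 22853.5, 21370.0 and 15909 on young replicates 1, 2 and 3. Its groups did not overlap (0.73 ± 0.23, adjusted p = 0.246), and its other tested probe set was at 0.05. Phkb, the beta subunit of phosphorylase kinase, was at 0.56 ± 0.27, with aged replicate 51 inside the young range, and at 0.08 with the station as a covariate. Pgm1, which links glucose 6-phosphate to glycogen, was at 0.70 ± 0.32, with aged replicate 51 at 10839.6 inside the young range of 7550.5 to 13667.5, and it was at 0.00 once the station entered the fit (adjusted p = 0.998).

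Prkar1a, a regulatory subunit of the cyclic AMP-dependent kinase, which activates phosphorylase kinase, had signals of 17142, 11279 and 13690.3 on aged replicates 51, 52 and 53, against 19454, 22729 and 24178 on young replicates 1, 2 and 3. Its aged arrays were all below its young arrays (-0.67 ± 0.23, adjusted p = 0.292), and its other tested probe sets were at -1.08 and 0.20.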
